A study of Miniopterus schreibersii with 14 samples.

Results

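The components described here are the 150 whose level was highest at stages S15-17 of autopod development in the bent-wing bat Miniopterus schreibersii, lower both in the earlier limb buds and in the fetal skeleton of hand and foot. The autopod is the hand or foot end of a limb. A component is a unit of the study's transcript assembly, named by its assembly number. The members were chosen by their measured values, from a table of 64618 components whose scores are normalized read counts rounded to whole numbers. Averaged over the 14 libraries, 13116 of them scored at least 50, and 2647 of the 13116 had a higher mean at S15-17 than in the buds and than in the fetal parts. The peak score of a component was the smaller of its log2 ratios of the S15-17 mean to the S14 mean and to the fetal mean, with 1 added to each mean. The 150 highest peak scores make up the list.

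The study sequenced 14 pieces of embryonic tissue, each as 1 library, and the labels name no treatment or genetic change. At S14 the forelimb bud and the hindlimb bud were each cut into an anterior, a middle and a posterior part, giving 6 libraries. At S15-17, forelimb digit I, digits II-V together and hindlimb digits I-V together were each sequenced, as was the interdigital tissue that goes with each, giving 6 libraries. From the fetal stage came the metacarpals of digits II-V and the metatarsals of digits I-V. No part was sequenced more than 1 time, and whether parts of a stage came from the same embryo is not stated in the sources used here. The p-values below therefore set a difference against the spread between matched parts. The dissected parts differ between stages as well, so stage and dissection cannot be told apart.

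In a vertebrate limb, cartilage condensations lay down the digit rays within the paddle-shaped bud, and the tissue between the rays is then usually removed. Bats keep the interdigital tissue of the wing as a flight membrane and lengthen the wing digits, while the thumb and the toes stay short and become free. The S15-17 libraries sample this window, with digits and interdigital tissue taken apart in the thumb region, the wing region and the foot. The deposited table does not pair components with genes, and none of its identifiers matched the gene table used here (0 matches among 22775 genes). Members are therefore known by number only, their function cannot be given, and no marker gene could be used to check the dissected tissues.

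For most members the spread between S15-17 parts was larger than counting error. Libraries held 4550754 to 7648427 reads, recovered from the smallest step between scores, and 1 read was worth a score of 1.29 to 2.23. A member had a median of 128 reads in a single S15-17 library and at least 295 reads over the 6. Counting error at these depths gives a median SD of 0.138 on the log2 scale. It leaves out variation between embryos or library preparations, which 1 library per part cannot tell apart from a difference between parts. The observed SD of log2(score + 1) over the 6 parts had a median of 0.45, and 122 of 150 members had an SD over 2 times their counting error. The count of 122 was not made for other components. All 150 members passed the minimum mean score of 10 used in the tests.

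Together the members took a small share of each library, and that share followed the rule that chose them. They held 0.238% to 0.351% of the score in the 6 S14 libraries, 0.834% to 0.971% in the 6 S15-17 libraries and 0.199% and 0.243% in the fetal pair. The median member had a mean score of 76.2 at S14, 218.8 at S15-17 and 59.5 in fetal parts. The lowest S15-17 mean was 81.0 and the highest was 6600. These values chose the members and are given as a description, with no test. In bulk tissue, a lower score from fewer cells of a type and one from less RNA per cell cannot be told apart.

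**Figure D1:**
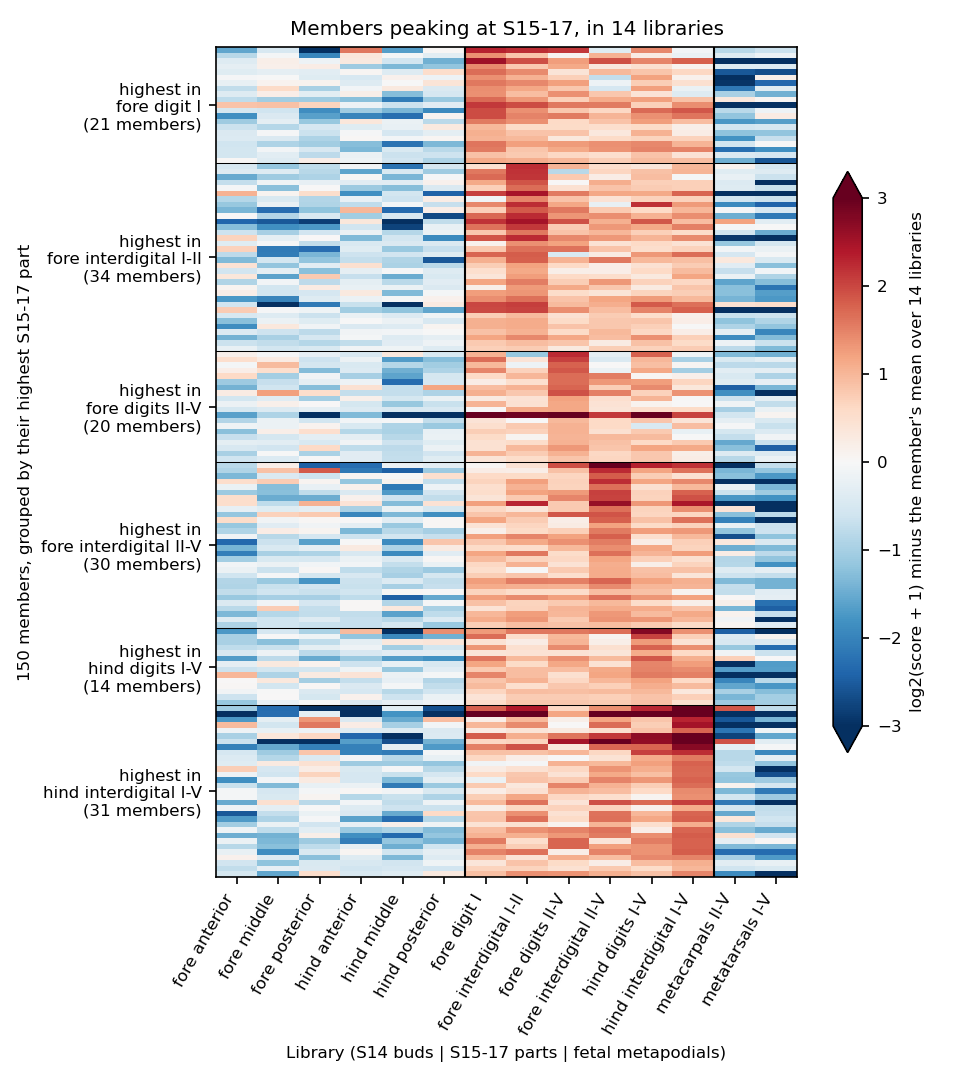
Each row is 1 of the 150 members and each column 1 of the 14 libraries; color gives log2(score + 1) minus the member's own mean over the libraries, capped at 3 either way, and rows are grouped by the S15-17 part with the highest score. The 6 S15-17 columns are redder than the S14 and fetal columns, as the rule requires, and the darkest cell moves from part to part between the groups, which hold 21, 34, 20, 30, 14 and 31 members.

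The peak was of different kinds. For 104 members the fetal mean lay below the S14 mean, and for 46 it lay above. The fetal mean was within 2-fold of the S14 mean for 90 members, over 2-fold below it for 47 and over 2-fold above it for 13. Thus most members had a similar level before and after the peak, while for others S15-17 was the last stage with a sizeable score. Component comp2526_c0 is an example of the latter: it scored 92, 37 and 133 in anterior, middle and posterior forelimb bud, 85, 25 and 86 in hindlimb bud, and then 110 to 396 at S15-17. In metacarpals and metatarsals it scored 1 and 0. Component comp15221_c0 had the opposite shape, with 0 to 11 in the buds, 28 to 210 at S15-17, 70 in metacarpals and 14 in metatarsals.

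The highest peak score, 5.86, belonged to comp4564_c0, followed by comp11836_c0 at 3.22. Component comp4564_c0 was nearly missing from the buds, at 2, 4 and 19 in forelimb and 2, 6 and 2 in hindlimb, and from the fetal parts, at 1 and 0. Its S15-17 scores were 288 in digit I, 276 in the tissue next to it, 54 in digits II-V, 301 in the tissue between them, 475 in hindlimb digits and 977 in hindlimb interdigital tissue. Every S15-17 score thus lay above every other, yet the 6 parts spanned 18.1-fold. Component comp11836_c0 scored 0 to 27 in the buds, and 560, 400, 583, 230, 576 and 215 in the S15-17 parts in the same order. It was 35 and 55 in the fetal parts. Its digits scored alike, at 560 to 583, and the 3 interdigital libraries lay below them.

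The most abundant members were comp422_c0 and comp495_c0. Component comp422_c0 scored 2068 to 3893 in the buds, 4252 to 8714 at S15-17, and 339 and 995 in metacarpals and metatarsals. Component comp495_c0 scored 2638 to 3586 in the buds, 4704 to 6586 at S15-17, and 2253 and 1539 in the fetal parts. Both kept all 6 S15-17 scores above the other 8 libraries, but with small folds, so that their peak scores of 1.22 and 0.97 placed them at ranks 77 and 131.

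The cut at 150 fell in a continuous range. The last members inside were comp609_c0 and comp11736_c0, with peak scores of 0.918 and 0.913, and the first outside were comp15053_c0 and comp7345_c0, at 0.909 and 0.908. Component comp609_c0 scored 650 to 1021 in the buds, 1218 to 2296 at S15-17 and 594 and 302 in the fetal parts, with no overlap. Component comp11736_c0, by contrast, scored 39 to 60 in the buds and 33 to 145 at S15-17, so its lowest part lay under every bud.

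The peak did not always hold in all S15-17 parts. In 84 of the 150 members, all 6 S15-17 libraries scored above all 8 libraries of the other stages, which holds for 1.55% of the 13116 components; the rule used this contrast, so the count is descriptive only. In 117 members at least 5 of the 6 parts lay above the other 8 libraries, and in 16 members no more than 3 did. Neither count was made over all components. Evenness over the parts went with a lack of overlap. In part this follows from the rule, which set the mean of the 6 parts above both other stages. The counts that follow are therefore descriptive only, and were not made over all components. Of the 55 members whose highest part was under 2-fold above the lowest, 49 had no overlap with the other stages, against 3 of the 18 members whose parts spanned 4-fold or more.

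Within S15-17 the members ranged from even to strongly tied to a part. The most even were comp2425_c0, at 1316 to 1655 over the 6 parts (1.26-fold), and comp11911_c0, at 95 to 122 (1.28-fold). The most uneven by share was comp10413_c0, with 85, 131, 37, 63 and 118 in the first 5 parts and 534 in hindlimb interdigital tissue, which held 55.2% of its summed S15-17 score. Component comp4564_c0 followed, with 41.2% in the same library, and no other member had 40% or more in a single part. Over all members the share of the highest part had a median of 23.8%, where equal parts would each hold a sixth.

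The spread between S15-17 parts was wide within the list. The median SD of log2(score + 1) over the 6 parts was 0.45 for members, 0.23 for the other 12966 components that averaged at least 50, and 0.22 for the 10852 of those whose S15-17 mean lay in the members' range. The highest part was under 2-fold above the lowest for 55 members, or fewer than the 80.0% found over all 13116 components, and at least 4-fold above it for 18 members, against 3.93%. The rule used the mean of the 6 parts, and its part in this spread was not tested.

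No single part was highest for most members. Interdigital tissue I-II was the highest of the 6 parts for 34 members (22.7%, against 14.3% of the 13116 components), hindlimb interdigital tissue for 31 (20.7%, 20.1%) and interdigital tissue II-V for 30 (20%, 15.3%). Digit I was highest for 21 members (14.0%, 15.7%), digits II-V for 20 (13.3%, 17.7%) and hindlimb digits for 14 (9.3%, 16.9%). Interdigital libraries together were highest for 95 members and digits for 55, while over the 13116 components interdigital tissue was highest for 49.8%. The lowest part was hindlimb interdigital tissue for 39 members (26.0%, against 24.1%), digits II-V for 33 (22%, 14.7%) and digit I for 23 (15.3%, 13.1%). It was hindlimb digits for 21 (14.0%, 6.65%), interdigital tissue II-V for 20 (13.3%, 23.7%) and interdigital tissue I-II for 14 (9.3%, 17.7%). Hindlimb interdigital tissue was among the most frequent at both ends, at shares near those of all 13116 components. Among the 18 members that spanned 4-fold or more, it was the highest part of 7, and digits II-V were the lowest of 7. The like was not counted over all components.

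**Figure D2:**
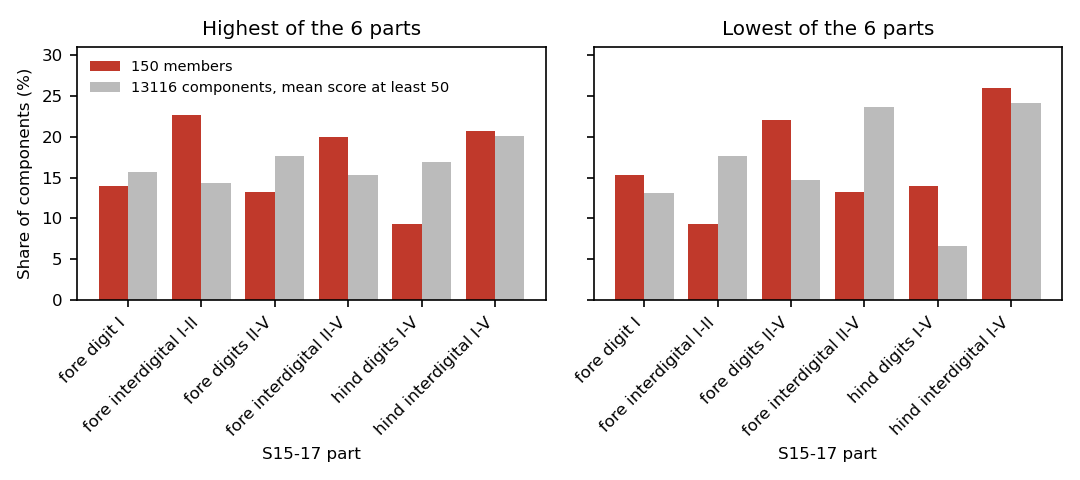
Bars give the percentage of components for which each S15-17 part held the highest score (left) or the lowest (right), in red for the 150 members and in grey for all 13116 components that averaged at least 50. Interdigital tissue I-II was highest for 22.7% of members against 14.3% of all, and hindlimb digits for 9.3% against 16.9%.

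Set side by side, the closest S15-17 libraries over the members were digit I and interdigital tissue I-II, and the farthest were digits II-V and hindlimb interdigital tissue. The root mean square log2 difference was 0.56 for the former and 1.03 for the latter, over 15 pairs of parts. Digits II-V exceeded hindlimb interdigital tissue over 2-fold in 17 members and lay over 2-fold below it in 23, 26.7% in all, against 5.41% of all 13116 components. Digits II-V exceeded hindlimb digits by that much in 9 members and lay below them in 14, 15.3% against 2.42%. Interdigital tissue of the wing exceeded that of the foot in 5 and lay below it in 12, 11.3% against 5.45%. Each of these sets 1 library against 1, with no test.

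The first tested question was whether digits and interdigital tissue differed over the thumb region, the wing region and the foot. Only comp2806_c0 passed the test, and its call was lost under several other settings. It scored 299, 691 and 499 in digit I, digits II-V and hindlimb digits, and 65, 121 and 132 in the matched interdigital libraries. All 3 digit scores lay above all 3 interdigital scores, and only the digits exceeded the buds, which scored 104 to 181. The interdigital scores stayed within or under that bud range, and the fetal parts scored 57 and 53. Its log2 difference was 2.20 (SE 0.17) and had the same sign in all 3 regions, at 2.18, 2.50 and 1.91 (limma adjusted p = 0.031).

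Differences were tested with limma over the 6 libraries, on log2(score + 1) with tissue and region in the model, for all 20429 components that averaged at least 10. A component was called at a Benjamini-Hochberg adjusted p under 0.05. The test called 1 of 150 members (0.667%) and 0.0196% of all components. Without digits II-V, interdigital tissue II-V, hindlimb digits or hindlimb interdigital tissue, 1 at a time, no member was called, and 0% of all components. The log2 difference of comp2806_c0 was then 2.05 to 2.34. Without digit I, 3 members were called (0.22% of all components), and 3 without the tissue next to it (0.122%). The call of comp2806_c0 was also lost with a pseudocount of 0.25 (limma adjusted p = 0.06), with no filter on low scores (0.66) and with no region term (0.23). Other settings called more members: 13 after centring libraries on their medians (0.964% of all components), 15 under robust variance shrinkage (1.04%) and 18 by limma voom on the recovered reads (1.07%), of which 12 were lower in digits.

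The member with the next largest excess in digits was comp3838_c0, at 412, 538 and 260 in digits against 173, 96 and 65 in interdigital tissue. The groups did not overlap, and its log2 difference was 1.90 (SE 0.25, limma adjusted p = 0.087). The buds scored 40 to 185, and the interdigital libraries again lay within that range. In the other direction, comp2526_c0 scored 150, 110 and 158 in digits and 316, 396 and 351 in interdigital tissue, a difference of -1.35 (SE 0.20, limma adjusted p = 0.11). Component comp452_c0 scored 194, 97 and 161 in digits and 259, 309 and 549 in interdigital tissue, a difference of -1.28 (SE 0.28, limma adjusted p = 0.28). Both of these were near 0 in the fetal parts, at 1 and 0 for comp2526_c0 and 8 and 2 for comp452_c0. Neither passed the test, while median centring, robust shrinkage and voom each called both of them and comp3838_c0.

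Over the list, the digit difference had a median of -0.08 and ranged from -1.35 to 2.20. The median was 0.02 over all tested components and 0.05 over the others that averaged at least 50. All 3 regions gave a higher digit score for 26 members (17.3%, against 16.2% of all components) and a lower one for 34 (22.7%, against 12.2%). The members' median was -0.02 without digit I or the tissue next to it, -0.05 without a wing library and -0.13 without a hindlimb library, so it depends on the regions included. An unadjusted p under 0.05 was found for 47 members, 19 higher and 28 lower in digits, or 31.3% against 8.55% of all components. The tested components include ones that averaged under 50, and no member did. Shares over only those that averaged at least 50 were not counted, here or in the tested comparisons that follow. In these, the share of members and the share of all components therefore come from sets of unlike level.

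The next question was whether the wing region, that is digits II-V with their interdigital tissue, stood apart from the thumb side and the foot. limma called none of the 150 members and 0.0147% of all components, while 37 members had an unadjusted p under 0.05, and limma voom on the recovered reads called 14 (0.773% of all). The smallest adjusted p of a member was 0.067. Component comp3518_c0 had the largest excess in the wing, and it was a matter of the thumb side: it scored 348 and 451 in digit I and the tissue next to it, 1287 and 2696 in the wing region, and 1681 and 1499 in the foot. The buds scored 61 to 384 and the fetal parts 32 and 203. The thumb side thus stayed near the bud range while the wing and foot lay above it. Its difference was 1.23 (SE 0.23, limma adjusted p = 0.24), or 0.75 without interdigital tissue II-V.

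Component comp11591_c0 showed a wing excess against both other regions. The wing scored 499 and 458, the thumb side 239 and 312, and the foot 163 and 174, with buds at 52 to 239 and fetal parts at 113 and 82. The foot scores lay above the hindlimb buds, at 52 to 109, and below the highest forelimb bud, at 239. The difference was 1.15 (SE 0.17, limma adjusted p = 0.16).

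The largest deficits in the wing were those of comp4564_c0 and comp10413_c0, given above. The difference was -1.77 (SE 0.44, limma adjusted p = 0.37) for comp4564_c0, at -2.75 in digits and -0.79 in interdigital tissue, which are also the values without the other wing library. For comp10413_c0 it was -1.73 (SE 0.35, limma adjusted p = 0.26). Wing digits gave the lowest S15-17 score of both, at 54 and 37, and the foot gave the highest and lay above the thumb side in both tissues.

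Across the list the wing difference was balanced, with a median of -0.02 against -0.01 over all components, and of 0.03 against 0.02 by voom. Digits and interdigital tissue both put the wing higher for 42 members (28.0%, against 25.2%) and lower for 52 (34.7%, against 27.4%). The 37 members at an unadjusted p under 0.05 make up 24.7%, against 8.36% of all components.

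**Figure D3:**
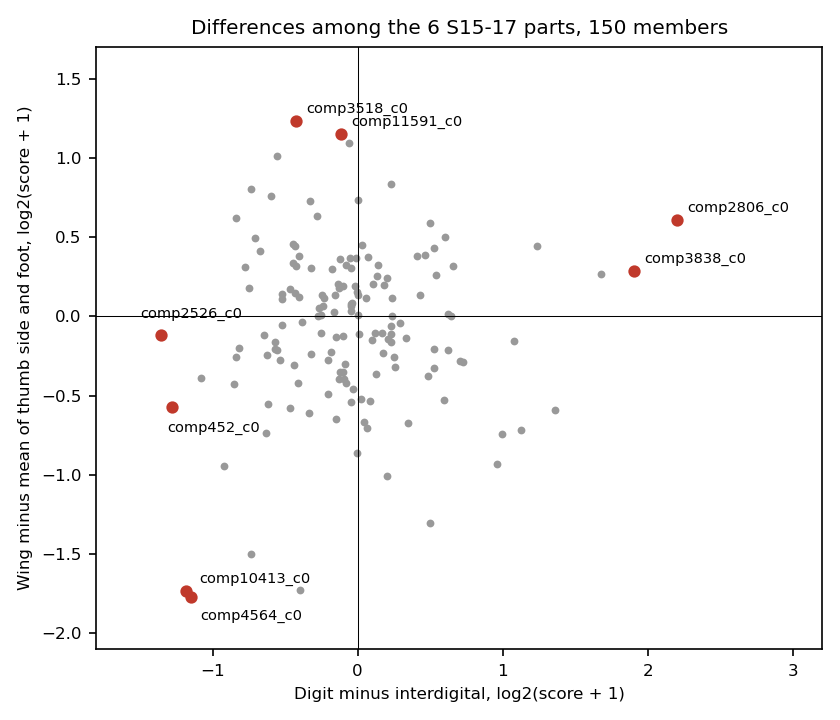
Each point is 1 of the 150 members, placed by its digit minus interdigital difference (x axis) and its wing minus mean of thumb side and foot difference (y axis), both in log2(score + 1) units from 6 libraries; red points name the largest differences among members whose matched pairs all share a sign. Most members lie near the origin, comp2806_c0 and comp3838_c0 lie far to the right at 2.20 and 1.90, and comp4564_c0 and comp10413_c0 lie lowest at -1.77 and -1.73.

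Thumb side and foot were also set against each other. limma called none of the members and 0.0490% of all components, and the smallest adjusted p of a member was 0.11. An unadjusted p under 0.05 was found for 56 members, 29 higher on the thumb side and 27 higher in the foot, or 37.3% against 9.13% of all components, and limma voom called 11 (0.901% of all). The thumb side scored 28 and 29 for comp15221_c0 and the foot 118 and 210, with the wing in between at 104 and 180. Its difference was -2.43 (SE 0.31, limma adjusted p = 0.11). For comp3518_c0, whose wing and foot lay together above the thumb side, the difference was -2.0 (SE 0.27, limma adjusted p = 0.13).

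In the other direction, comp12654_c0 scored 248 and 233 on the thumb side, 216 and 38 in the wing and 134 and 46 in the foot. Its digit libraries were closer to each other than its interdigital libraries, of which only that next to digit I was high. The difference was 1.60 (SE 0.51, limma adjusted p = 0.49), and it was 0.64 without interdigital tissue I-II and 2.55 without digit I. Component comp6254_c0 scored 823 and 1131 on the thumb side, 437 and 299 in the wing and 481 and 249 in the foot, a difference of 1.48 (SE 0.31, limma adjusted p = 0.34), or 0.87 without interdigital tissue I-II. Its thumb side lay above the buds, at 89 to 262, by a wide margin, and hindlimb interdigital tissue lay within them. The thumb side was higher in both tissues for 60 members (40%, against 24.7% of all components) and lower for 48 (32%, against 30.0%).

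Between wing and foot, the comparison of forelimb digits II-V and their interdigital tissue with the hindlimb counterparts, limma again called no member and 0.0245% of all components. Here 32 members (21.3%, against 8.29%) had an unadjusted p under 0.05, and limma voom called 11 (0.891% of all). The comparison is built from the same 6 libraries as those above. Component comp879_c0, among the most abundant members, scored 6346 and 6452 in the wing, 2736 and 2703 in the foot and 3117 and 3492 on the thumb side. Its wing scores stood alone, and digits and interdigital tissue were alike within each region. The wing to foot difference was 1.23 (SE 0.12, limma adjusted p = 0.093). That of comp11591_c0 was 1.5 (SE 0.19, limma adjusted p = 0.14). The largest negative differences were -2.40 for comp4564_c0 and -2.36 for comp10413_c0 (limma adjusted p = 0.32 and 0.26), the former -1.42 without digits II-V. Wing scores exceeded foot scores in both tissues for 37 members (24.7%, against 20.7%) and lay below them for 48 (32%, against 28.3%).

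**Figure D4:**
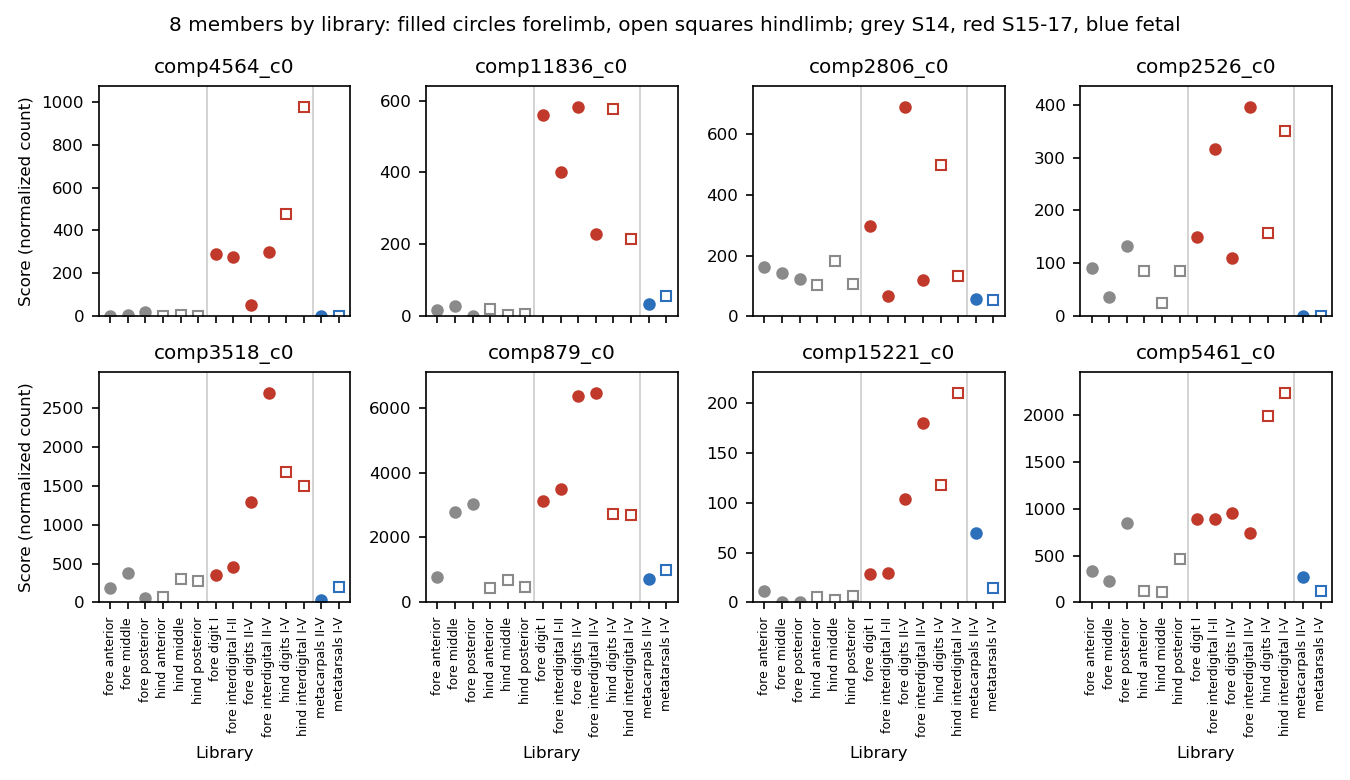
Scores of 8 members in each of the 14 libraries, 1 point per library, on linear axes that start at 0; filled circles are forelimb and open squares hindlimb, with S14 in grey, S15-17 in red and fetal parts in blue. In comp2806_c0 only the 3 digit libraries, at 299 to 691, lie above the buds, in comp879_c0 the wing libraries stand at 6346 and 6452, and in comp5461_c0 the hindlimb libraries at 1993 and 2236 do.

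Limb differences of the members in the buds, before the peak, were measured over the anterior, middle and posterior pairs. limma called 0 of 150 members and 0% of all components, with a smallest adjusted p of 0.40 among members. An unadjusted p under 0.05 was found for 32 members (21.3%, against 10.7%), 24 of them higher in forelimb, and limma voom called 4 (0.352% of all). The largest forelimb excess was that of comp13231_c0, at 20, 51 and 63 in forelimb and 7, 0 and 30 in hindlimb, a difference of 2.71 (SE 1.03, limma adjusted p = 0.47) that was 1.22 without the middle pair, where hindlimb scored 0. For comp17705_c0, forelimb buds scored 25, 88 and 175 and hindlimb buds 10, 8 and 22, a difference of 2.49 (SE 0.49, limma adjusted p = 0.46). Its posterior forelimb bud exceeded all S15-17 parts but interdigital tissue II-V, at 231.

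Among members higher in hindlimb in all 3 bud pairs, the largest differences were those of comp11109_c0, at 11, 9 and 29 in forelimb and 34, 37 and 42 in hindlimb, and of comp7905_c0, at 223, 183 and 260 against 360, 544 and 562. Their differences were -1.33 (SE 0.39) and -1.12 (SE 0.19), with limma adjusted p of 0.46 and 0.42, and in both the limbs did not overlap. At S15-17 the limb order of comp11109_c0 was no longer clear, with 71 and 88 in the wing against 94 and 76 in the foot. For comp7905_c0 it was kept, at 889 and 494 against 1067 and 591. Forelimb was higher in all 3 bud pairs for 39 members (26.0%, against 13.9% of all components) and lower for 21 (14.0%, against 18.1%).

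Whether the limb difference changed between S14 and S15-17 was tested over 5 matched pairs, the 3 of the buds and those of wing and foot digits and interdigital tissue. limma called none of the members and 0.00490% of all components, with 25 members (16.7%, against 9.54%) at an unadjusted p under 0.05 and 1 called by limma voom (0.0147% of all). The clearest case, named after its values were seen, was comp5461_c0. Forelimb buds scored 337, 230 and 847 and hindlimb buds 119, 112 and 461, higher in forelimb in all 3 pairs. At S15-17 it scored 952 and 738 in the wing and 1993 and 2236 in the foot, higher in hindlimb in both pairs. The log2 difference was thus 1.49, 1.03 and 0.88 in the buds and -1.07 and -1.60 later, a change of -2.47 (SE 0.26, limma adjusted p = 0.12). Digit I and the tissue next to it, which were not in this test, scored 887 and 888, on the side of the wing.

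By size, the changes toward hindlimb were led by comp13231_c0 at -3.82 (SE 1.27, limma adjusted p = 0.50) and comp4564_c0 at -3.15 (SE 0.99, limma adjusted p = 0.50). Without the middle bud pair, where hindlimb scored 0, the change of comp13231_c0 was -2.32, and all bud scores of comp4564_c0 were 2 to 19. The largest change toward forelimb was 2.22 for comp12654_c0 (SE 1.39, limma adjusted p = 0.59), whose bud pairs differed in sign, at -3.13, 1.17 and -4.09, and overlapped with its later pairs. Where both later pairs lay beyond all bud pairs, the largest changes toward forelimb were those of comp9530_c0 at 1.78 (SE 0.67) and comp11082_c0 at 1.62 (SE 0.53), with limma adjusted p of 0.52 and 0.50, the latter 0.89 without the interdigital pair. For comp9530_c0, forelimb buds scored 58, 104 and 64, hindlimb buds 215, 96 and 359, and the later parts 534 and 264 in the wing against 421 and 201 in the foot. Component comp11082_c0 scored 25, 48 and 42 against 68, 65 and 93 in the buds, 103 against 110 in digits and 231 against 90 in interdigital tissue.

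A limb order that turned over, forelimb higher in all 3 bud pairs and hindlimb higher in both later pairs, was found in 13 members (8.67%, against 4.03% of all components). The opposite turn was found in 2 members (1.33%, against 3.50%). Forelimb was higher in all 5 pairs for 7 members (4.67%, against 3.27%) and hindlimb for 11 (7.33%, against 4.38%). Despite these differences, each of the 150 members had a higher mean at S15-17 than at S14 in forelimb and in hindlimb taken alone, with median log2 ratios of 1.34 and 1.44, and 81 members reached 2-fold in both limbs. This follows in part from the rule, which used the mean of both limbs, and was not counted over all components.

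**Figure D5:**
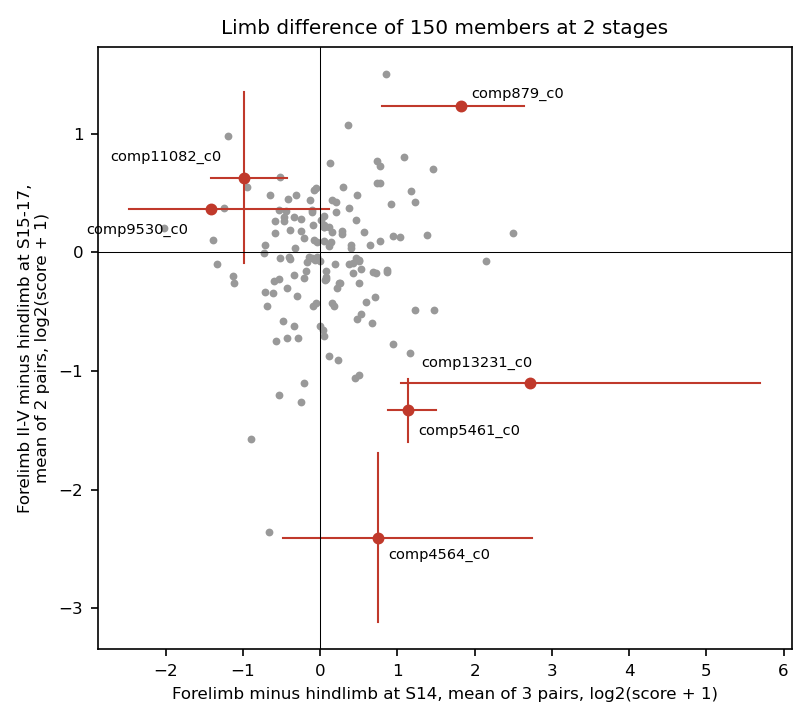
Each point is a member, placed by its forelimb minus hindlimb difference in the buds (x axis, mean of 3 pairs) and at S15-17 (y axis, mean of 2 pairs), in log2(score + 1) units; red lines on named members run from the lowest to the highest pair. For comp5461_c0 the lines stay on the forelimb side at S14 and on the hindlimb side at S15-17, while comp879_c0 lies on the forelimb side at both.

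After the peak, metacarpals and metatarsals differed for part of the list. Metacarpals were over 2-fold higher for 22 members (14.7%, against 6.16% of the 13116 components) and metatarsals for 12 (8.0%, against 5.74%), with a median log2 difference of 0.12 over members and 0 over all. The rule chose members with low fetal means, so some of these folds rest on few reads. Scores in metacarpals and metatarsals were 9 and 0 for comp17010_c0, and 5 and 13 for comp13231_c0. How many of the folds rest on such low scores was not counted. Among members named above, comp10413_c0 had its lowest S15-17 scores in the wing and its highest in hindlimb interdigital tissue. In metacarpals and metatarsals it scored 90 and 14. Component comp3518_c0 scored 32 and 203, and comp11736_c0 scored 6 and 63. Both fetal scores were under 10 for 14 members, a count not made over all components. These are values of 1 library against 1, with no test.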

How the data were processed

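Per the labels' protocols, DNase-treated total RNA was used for TruSeq libraries. Per the submitters' processing notes, CASAVA 1.8, RSEM and edgeR were used, with no role or order given. Assembly method, normalization and strand setting are not given in the sources used here. The deposited values are scores, that is counts that the authors normalized between libraries and rounded to whole numbers, with totals of 9191852 to 11045040 per library. Low scores in each library fall only on multiples of 1 step. Reads were recovered as scores divided by that step, which was fitted on scores up to 2000; 99.981% to 100% of nonzero scores matched a whole number of steps after rounding. The rounded scores themselves were not used in count models, and limma voom was run on the recovered reads as an alternative.

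Members followed the stated rule, with no exception. They and every list were chosen with earlier results of these data known. Differences were fitted with limma 3.58.1 (trend) in R 4.3.3 on log2(score + 1), over all 20429 components that averaged at least 10, which hold 98.95% of all scores, with matched parts as blocks and Benjamini-Hochberg adjustment, two-sided. The fits had 2 residual degrees of freedom before variance shrinkage, and 3 for the change of the limb difference. The pseudocount understates changes of low components. The fit code was run on simulated reads with known changes, which does not show how the fits perform at the spread between parts measured here. Python 3.11.15 with numpy 2.4.6, pandas 2.3.3 and matplotlib 3.10.9 made the descriptions and plots. Named were the 2 members with the highest peak score, the 2 on each side of the limit of 150, the 2 most abundant, the 2 most uneven and the 2 most even over S15-17, and, per comparison and direction, the 2 largest differences among called members or else among those with the same sign in every pair (for the stage by limb comparison, with the later pairs all beyond the earlier). Alternatives were other pseudocounts, filters, scalings, variance shrinkage, no block, limma voom and leaving out libraries; leaving out S14 libraries from the rule was added after seeing the data.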

Additional observations from a re-analysis of the deposited data

How the results depend on the processing

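The rule kept 133 to 149 of the 150 members with another pseudocount, upper-quartile scaling or stage medians, and 118 to 142 without 1 library, the lowest without metacarpals; a minimum mean of 20 in place of 50 left 84, because low components entered. Of 150 members, the digit comparison called 1 in the reported limma fit, 0 with a pseudocount of 0.25, no filter or no block, 2 with a pseudocount of 5, 13 (6 higher in digits) after centring libraries on their medians, 15 under robust shrinkage, 18 by limma voom and 0 to 3 without 1 library. The wing comparison, at 0, gave 2 with a pseudocount of 5 (0.0587% of all components) and 2 with upper-quartile scaling (0.0392%). It gave 10 after median centring (0.685%), 12 under robust shrinkage (0.857%) and 14 by voom (0.773%). Thumb side against foot gave 7, 7 and 11 under median centring, robust shrinkage and voom (0.587%, 0.71% and 0.901% of all). Wing against foot gave 9, 10 and 11 under the same settings (0.666%, 0.891% and 0.891%), and 1 with a pseudocount of 5 (0.0392%). The bud comparison gave 7 under robust shrinkage (0.734% of all) and 4 by voom (0.352%). The change of the limb difference gave 1 under median centring, robust shrinkage or voom (0.0343%, 0.0783% and 0.0147%). In these 5 comparisons the fits without 1 library or pair called no member, and most of them called no component at all. They are thus no result about the members. Over all components the digit fits also moved, from 4 called to 31 with a pseudocount of 5. They called 0 with a pseudocount of 0.25, no filter or no block. They called 197, 213 and 219 under median centring, robust shrinkage and voom. The cause was not tested. Of 320 repeated values for named members, 0 changed sign, 47 became called and 7, all of comp2806_c0, lost the call. Named differences with 1 library left out have a single residual degree of freedom at S15-17. No paired analysis was possible by replicate number because each part has 1 library; parts were matched by anatomy instead.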
